A study of Homo sapiens with 24 samples.

Results

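The genes described here are the numbered zinc-finger genes of human chromosome 19, chosen as every row of the deposited gene tables whose symbol is ZNF followed by digits alone and whose chromosome is 19. The rule used no measured value. It found 241 genes among the 60658 genes of the tables, which is 50.2% of the 480 genes with such a symbol. The other 239 lie on other chromosomes. A KRAB A box was found in the encoded protein of 203 of the 241 and was not found in 35. The remaining 3 (ZNF788, ZNF807 and ZNF542) had no coding model. The GC content of the longest transcript had a median of 42.3% over the 241 genes, with a range from 33.9% to 71.1%, against 46.8% over the 56510 genes with a sequence. The family is therefore KRAB-rich and mostly of low GC content, with exceptions: 174 members lie below 45%, 43 lie from 45% to 55%, and 24 lie above 55%. Of these 24 GC-rich members, 22 had no KRAB A box.

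The study compared ways of depleting the circular RNA ciRS-7, also called CDR1as, in cells labelled SH-SY5Y, a neuroblastoma line, and its design text asks how much off-target change each one brings. There were 4 setups. In the agoshRNA setup the cells received a vector that expresses a short hairpin RNA. For gRNA and pre-gRNA, cells took up a vector for CasRx fused to GFP together with a plasmid that expresses the respective form of guide RNA. CasRx is an RNA-cutting CRISPR enzyme that a guide RNA directs to its target. The guide of the syn-gRNA setup was a chemical synthesis product, going by the title of the series, and the labels do not describe how it was delivered. Each setup had a knockdown arm (KD), directed at CDR1as, and an arm with a non-targeting control (NTC), and each of these 8 groups had 3 libraries, 24 in all. All groups share the cell line, and the vector transfections described in the labels used Lipofectamine, with RNA taken 48 h later, so no group here is untransfected. Poly(A) RNA was sequenced without strand information. The libraries of a group carry the letters A, B and C in the tables. What a letter stands for is not stated, and nothing in the labels says that the libraries of a group came from separate cultures, so p-values measure the spread between these libraries, which may be technical. ciRS-7 is a circle without a poly(A) tail, and no value for it can be taken from these counts.

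A KRAB zinc-finger protein is a DNA-binding repressor. Its array of C2H2 fingers, each held by a zinc ion between a pair of cysteines and a pair of histidines, reads a DNA sequence, and its KRAB domain recruits TRIM28 (KAP1), which brings in the histone H3 lysine 9 methyltransferase SETDB1 and the HP1 proteins. Many of these proteins bind and silence transposable elements, and their genes arose by repeated tandem duplication, which left large clusters on chromosome 19. Zinc-finger genes without a KRAB box lie among them and include activators and structural regulators.

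The coding stretches below show what separates the low-GC from the GC-rich members. The differences between libraries went with GC content in most members but not in all. GC content also goes with other traits, such as gene length (median 5493 bases below 45% GC and 3397 above 55%). The part of each trait was not tested. Each is the first finger of the coding sequence that has the most common spacing of its cysteines and histidines and is followed by a conserved linker, 26 codons long. Earlier fingers of another form were passed over. Each is read 5′ to 3′ on the coding strand of the GENCODE 29 transcript, and the capitals mark the codons of the zinc-binding cysteines and histidines. All lie in coding exons of genes on chromosome 19, and the gene positions that follow are those of the tables (hg19). The first 4 belong to low-GC genes: ZNF146 (36705504 to 36729676, plus strand), ZNF121 (9671029 to 9695209, minus strand), ZNF260 (37001597 to 37019562, minus strand) and ZNF91 (23487793 to 23578362, minus strand). The other 4 belong to GC-rich genes: ZNF581 (56146825 to 56156988, plus strand), ZNF358 (7580178 to 7585912, plus strand), ZNF787 (56598732 to 56632649, minus strand) and ZNF865 (56116771 to 56128635, plus strand).
ZNF146: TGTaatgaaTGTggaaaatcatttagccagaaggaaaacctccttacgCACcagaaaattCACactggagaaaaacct
ZNF121: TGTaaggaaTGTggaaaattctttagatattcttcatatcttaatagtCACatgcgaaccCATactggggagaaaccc
ZNF260: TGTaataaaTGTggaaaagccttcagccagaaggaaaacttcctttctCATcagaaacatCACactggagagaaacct
ZNF91: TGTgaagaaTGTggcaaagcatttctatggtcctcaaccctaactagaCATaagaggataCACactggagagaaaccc
ZNF581: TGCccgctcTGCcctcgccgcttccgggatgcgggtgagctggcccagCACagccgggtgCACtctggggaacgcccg
ZNF358: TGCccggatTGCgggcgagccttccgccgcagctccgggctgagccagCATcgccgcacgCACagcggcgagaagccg
ZNF787: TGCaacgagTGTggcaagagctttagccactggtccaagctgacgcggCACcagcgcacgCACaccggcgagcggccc
ZNF865: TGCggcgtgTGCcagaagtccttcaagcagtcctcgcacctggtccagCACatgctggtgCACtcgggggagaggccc
The spacing of cysteines and histidines is shared, and the letters between them differ most at the third base of the codons, where G or C makes up 34.6% in ZNF146, 30.8% in ZNF121, 38.5% in ZNF260 and 34.6% in ZNF91. In the GC-rich genes the share is 80.8% in ZNF581, 88.5% in ZNF358, 92.3% in ZNF787 and 100% in ZNF865. Over whole coding sequences the median GC content at the third codon position was 36.4% in the members below 45% GC (171 with a coding model) and 79.7% in the 24 above 55%.

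The promoters differed between the GC classes in the same direction as the messages, over a narrower range. Promoters, taken as 250 bases before to 50 bases after the gene start, were found by symbol for 207 of the 241 members in RefSeq (GRCh38.p14). Their median GC content was 60.0%, against 58.7% over all 35116 promoters of the table, and the median number of CG dinucleotides was 20 against 14. CG reads the same on both strands. It occurred in 100% of the members' promoters and in 96.0% of all promoters. Members below 45% transcript GC had a median promoter GC of 59.0% with 19 CG, and those above 55% had 67.7% with 29 CG, where the median transcript GC of the same genes was 40.7% and 61.7%. The 2 promoters below, with CG in capitals, show this for the low-GC gene with the highest level and for a GC-rich gene: ZNF146 at chr19:36214856-36215155 (plus strand, promoter GC 59.0%, 24 CG) and ZNF787 at chr19:56121246-56121545 (minus strand, 75.0%, 32 CG).
ZNF146: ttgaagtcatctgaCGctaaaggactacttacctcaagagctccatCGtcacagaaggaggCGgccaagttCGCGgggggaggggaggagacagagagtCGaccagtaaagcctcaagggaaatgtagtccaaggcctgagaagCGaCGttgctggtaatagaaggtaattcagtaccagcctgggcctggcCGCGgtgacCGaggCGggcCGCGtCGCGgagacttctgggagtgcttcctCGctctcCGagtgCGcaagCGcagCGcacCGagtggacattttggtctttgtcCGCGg
ZNF787: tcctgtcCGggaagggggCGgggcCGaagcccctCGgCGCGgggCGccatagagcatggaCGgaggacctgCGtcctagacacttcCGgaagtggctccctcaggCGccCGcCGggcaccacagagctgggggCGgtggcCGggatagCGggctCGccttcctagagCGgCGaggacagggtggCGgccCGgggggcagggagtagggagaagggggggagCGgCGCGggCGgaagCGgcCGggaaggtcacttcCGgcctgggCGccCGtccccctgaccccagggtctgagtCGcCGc
In ZNF146 the transcript had a GC content of 41.4%, below that of the stretch around its start, and in ZNF787 it had 70.3%. A match to CG is a description of the sequence and not of its methylation, which was not measured.

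Most of the family was expressed at a low level. Of the 241 members, 197 (81.7%) passed the filter, which asked for 10 or more counts in 3 or more of the 24 libraries, 26 had no more than 3 counts in any library, and 3 (ZNF729, ZNF229 and ZNF534) had none. A total of 0 counts over all libraries allows a level of up to 0.00892 CPM (counts-per-million, relative to the total of the library), counting error only. Together the members took between 1399 and 2450 CPM of a library, that is 0.140% to 0.245%, with a median of 0.174%, and between 171 and 194 members had at least 10 counts. Levels per length are given as RPKM, the CPM value divided by the length of the gene's counted exons in kilobases. The median RPKM of the tested members was 0.941, against 3.56 over all 20172 genes tested, 2.77 over the zinc-finger genes of other chromosomes and 5.26 over the other genes of chromosome 19. Members with a KRAB A box had a median of 0.858 and those without one 3.64. Of the 95 members above 1 RPKM, 70 had a KRAB A box. Of the 13 above 5 RPKM, 2 had one, and of the 6 above 10 RPKM none did.

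The 6 members with the highest level per length were ZNF581 at 40.9 ± 14.5 RPKM (SD, n = 24), ZNF146 at 28.5 ± 15.0, ZNF358 at 25.3 ± 8.72, ZNF428 at 24.9 ± 7.66, ZNF580 at 21.7 ± 6.82 and ZNF787 at 15.9 ± 4.90. None has a KRAB A box. ZNF146, known as OZF and made of fingers alone, is the only one of low GC content. In this order ZNF146, ZNF358, ZNF428 and ZNF580 differ from each other by less than the SD of ZNF146. Counting was without strand, and 145 of the 197 tested members overlap another gene of the tables. ZNF581 and ZNF580 overlap each other and CCDC106 on the same strand, ZNF358 overlaps a gene on each strand, and ZNF428 overlaps SRRM5 on the opposite strand, so the levels of these 4 are uncertain. The plot of level against GC content shows how far the GC-rich members without a KRAB box stand above the bulk of the family.

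**Figure D1:**
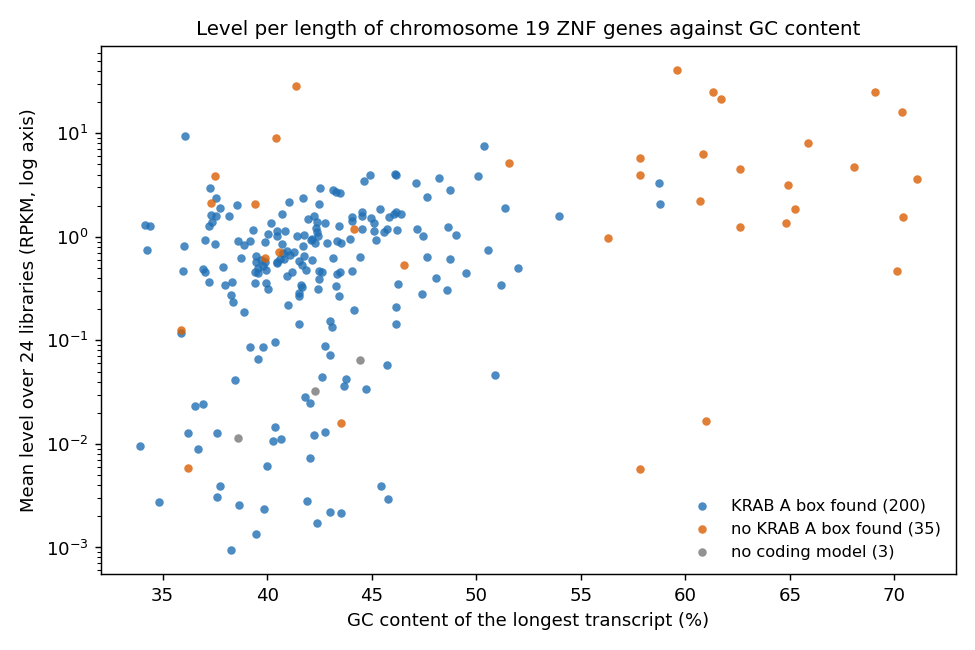
Mean level over the 24 libraries (RPKM, log axis) against the GC content of the longest transcript (%), 1 point per member with any count, tested or not, coloured by whether a KRAB A box was found. KRAB members crowd between 35% and 50% GC, with a median of 0.858 RPKM among those tested, and of the 13 members above 5 RPKM only 2 carry the box.

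The positions of the members fall in clusters along chromosome 19. The cluster between 19 and 25 Mb, the pericentromeric one, had the lowest median GC content, 37.5%, and 19 of its 35 members passed the filter. Elsewhere 38 of 47 passed below 19 Mb, 30 of 32 between 25 and 39 Mb, 25 of 27 between 39 and 47 Mb, 31 of 41 between 47 and 54 Mb, and 54 of 59 above 54 Mb. Median levels of the tested members ran from 0.616 RPKM between 47 and 54 Mb to 1.23 RPKM above 54 Mb, where the median GC content was also the highest, 46.2%. The leading KRAB members by cluster were ZNF317 at 7.53 RPKM below 19 Mb, ZNF738 at 9.42 between 19 and 25 Mb, ZNF302 at 2.99 between 25 and 39 Mb and ZNF473 at 3.73 between 47 and 54 Mb. These 4 were chosen after their values were seen. ZNF473 is known for its part in the processing of histone messages.

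Members with a known role were mostly at low or moderate levels. ZNF91, a repressor of SVA retrotransposons, had 0.455 RPKM and between 1.14 and 10.1 CPM. ZNF93, a repressor of L1 retrotransposons, and ZNF808, needed for pancreas development, stayed at no more than 3 counts in every library. ZNF274, which binds the 3′ ends of zinc-finger genes and recruits SETDB1 there, had 1.91 RPKM and between 8.75 and 21.99 CPM. ZNF587 and ZNF417, near-identical paralogs that bind HERV-K elements, had 3.99 and 1.11 RPKM, and the split of reads between these 2 is uncertain. ZNF675 had 1.62 RPKM, ZNF224 had 1.36, ZNF649 had 0.816, ZNF350 (ZBRK1) had 0.459, ZNF382 had 0.345 and the imprinted gene ZNF331 had 0.143. ZNF536, a regulator of neuronal differentiation without a KRAB box, had 0.967 RPKM.

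The depth and the identity of the libraries bear on every result. Totals ran from 10994974 counts (syn-gRNA KD C) to 16233777 (pre-gRNA NTC A). The cell type in the labels was checked against markers. Of 10 noradrenergic neuroblastoma genes, 6 were below 1 CPM on average. PHOX2A, DBH, TH, STMN2 and ELAVL4 were among them, each with at most 5 counts in any library. The others of the list were present, CHRNA3 at 13.0 CPM, ISL1 at 8.54, HAND2 at 2.66 and GAP43 at 1.21. The list summed to between 14.03 and 33.7 CPM. Of 7 kidney-lineage genes described in HEK293 cells, 6 were above 10 CPM, among them HOXA9 at 98.2 CPM, with sums between 155 and 419 CPM. Of 5 mesenchymal genes 4 were, VIM at 872 CPM among them. The exceptions were LHX1 at 1.57 CPM and PRRX1 at 1.77 CPM. The libraries are therefore called only as labelled. In bulk RNA, fewer cells of a kind and less RNA per cell cannot be told apart.

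Libraries of the same group differed widely from each other in the members' levels. ZNF146 had 31.8 CPM in library A, 205 in B and 106 in C of the agoshRNA KD group, and 37.3, 178 and 116 CPM in the same letters of the agoshRNA NTC group. In the gRNA setup it had 57.1, 113 and 207 CPM in KD and 58.4, 97.8 and 241 in NTC. In the pre-gRNA setup it had 128, 44.2 and 218 CPM in KD and 100.3, 47.3 and 202 in NTC. In the syn-gRNA setup it had 150.2, 84.9 and 108 CPM in KD and 133.7, 84.7 and 84.5 in NTC. Within each setup the KD and NTC values of ZNF146 overlapped, and the libraries with the same letter resembled each other across the arms. The high letter was B in agoshRNA, C in gRNA and pre-gRNA, and A in syn-gRNA, so a letter did not stand for the same pattern in every setup.

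The GC-rich members moved the other way. ZNF581 had 91.9, 36.0 and 65.8 CPM in letters A, B and C of agoshRNA KD and 74.1, 41.6 and 50.8 in NTC, lowest in the letter where ZNF146 was highest. In pre-gRNA it had 76.7, 128 and 46.7 CPM in KD and 89.2, 133 and 54.98 in NTC, highest in the letter where ZNF146 was lowest. In gRNA it had 111, 70.6 and 51.5 CPM in KD and 78.5, 75.3 and 47.9 in NTC, and in syn-gRNA 58.2, 73.0 and 56.6 CPM in KD and 60.6, 65.2 and 67.8 in NTC. ZNF121 and ZNF260, of low GC content, went with ZNF146. ZNF121 had its lowest value, 10.2 CPM, in agoshRNA KD A and its highest, 149.5 CPM, in gRNA NTC C. The plot of single members by library sets these genes side by side.

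**Figure D2:**
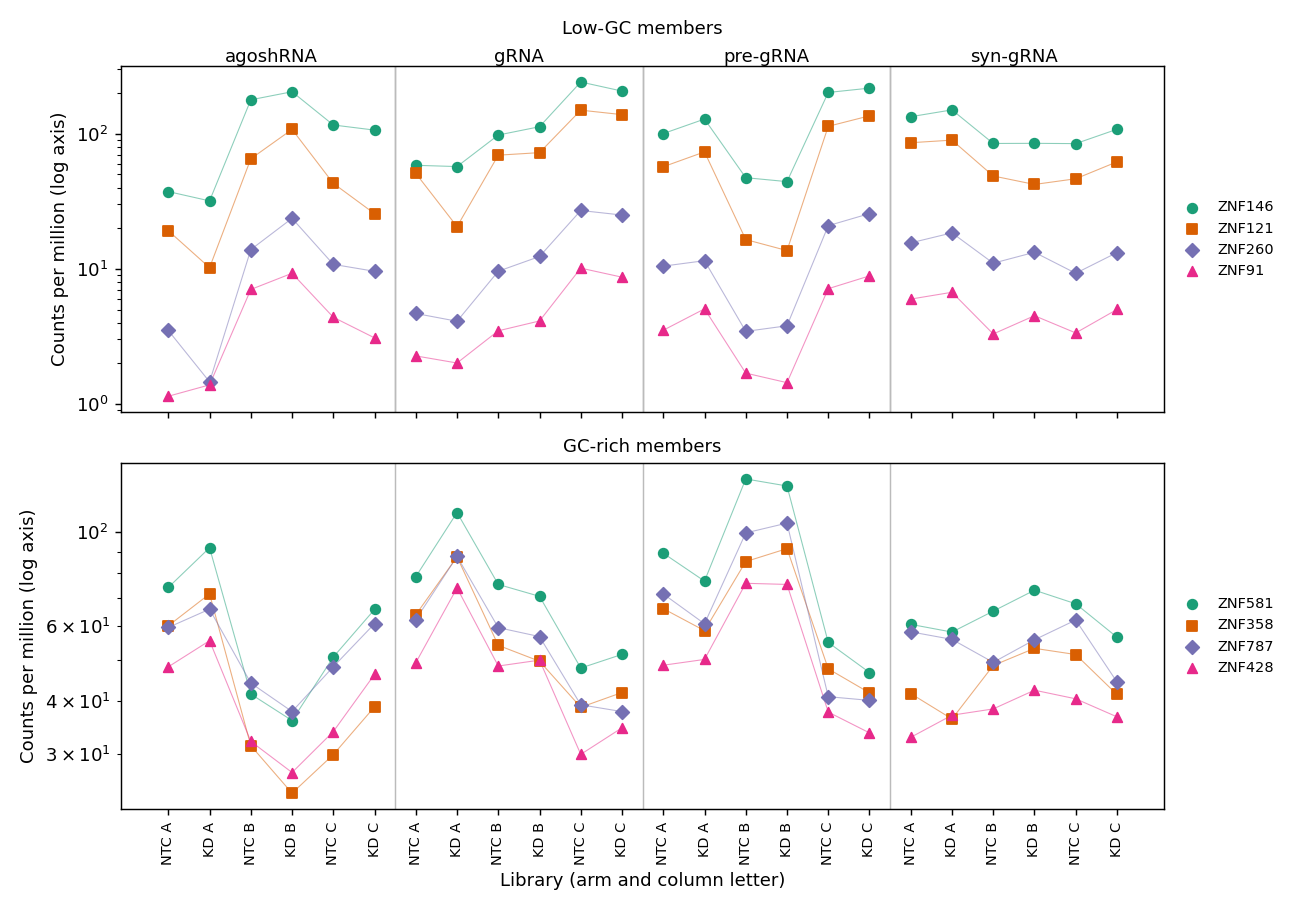
CPM (log axis) of 4 low-GC members (upper panel) and 4 GC-rich members (lower panel) in each of the 24 libraries, by setup, arm and column letter, with lines joining the libraries of a setup. ZNF146 ranges from 31.8 to 241 CPM and ZNF581 from 36.0 to 133 CPM, and within the agoshRNA, gRNA and pre-gRNA setups the upper and lower panels run in opposite directions.

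Over the 24 libraries the median SD of log2 CPM was 0.694 for the tested members, 0.735 for those below 45% GC and 0.575 for those above 55%, against 0.544 over all genes tested. It was 0.718 over the other genes below 45% GC, so the spread of the low-GC members was close to that of other low-GC genes. Among members with a mean of at least 50 counts the largest spreads were those of ZNF121 (SD 1.10 on the log2 scale, highest library 14.7 times the lowest), ZNF260 (1.09, 18.6 times), ZNF507 (1.05, 12.5 times) and ZNF224 (0.989, 11.1 times). All 4 have a transcript GC content under 45%. The smallest were those of ZNF552 (0.234, between 3.87 and 6.43 CPM), ZNF749 (0.266), ZNF333 (0.288) and ZNF761 (0.329). Of these, ZNF333 (44.05%) and ZNF761 (40.1%) also have a transcript GC content under 45%, and ZNF552 (46.0%) and ZNF749 (46.1%) lie just above it. Within a group of 3 libraries, the highest library was more than 2 times the lowest in at least 1 group for 185 of 192 members and more than 4 times for 121.

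Taken over all tested members, the median deviation of a library from each gene's own mean ran from -0.99 (pre-gRNA NTC B) to 0.72 (gRNA NTC C) on the log2 CPM scale. The same median over all genes tested ran from -0.29 to 0.21. For members below 45% GC the range was -1.17 to 0.88, and for other genes below 45% GC it was -1.12 to 0.71. For members above 55% GC it ran from -0.86 (agoshRNA KD B) to 0.79 (gRNA KD A), and for other genes above 55% from -0.58 to 0.58. The number of members above their own mean was 36 of 197 in pre-gRNA KD B and 174 in pre-gRNA KD A, 2 libraries of the same group. Across the members, Spearman's rho between GC content and the deviation in a library lay between -0.67 and 0.68, a description over genes of the same libraries and not over replicates. The members without a KRAB box but below 45% GC moved with the low-GC members, from -1.68 to 1.18, and the 2 KRAB members above 55% GC moved with the GC-rich ones, from -0.92 to 0.91. Library medians by GC class are plotted next.

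**Figure D3:**
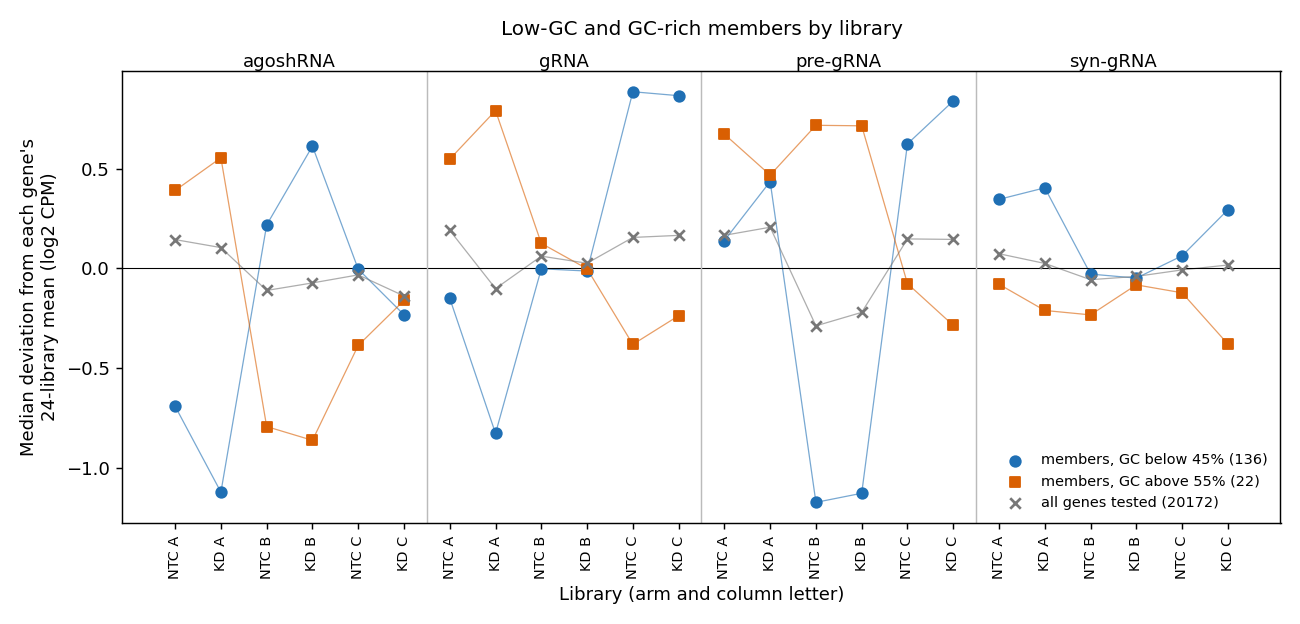
Median deviation from each gene's 24-library mean (log2 CPM) in each library, for members below 45% GC, members above 55% GC and all genes tested, with lines joining the libraries of a setup. Low-GC members span -1.17 to 0.88 while all genes span -0.29 to 0.21, and the GC-rich members lie on the other side of 0 in most libraries where the low-GC members stand apart.

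The family as a whole had close companions outside chromosome 19. The 5 genes whose log2 CPM followed the family mean most closely over the 24 libraries, by Pearson's r, were DDI2 (0.98), GAB1 (0.98), TRMT1L (0.98), STOX2 (0.98) and ZFP62 (0.97), with transcript GC contents between 38.4% and 46.8%. Of the members themselves, 98 of 197 had an r over 0.8 with the family mean, which includes them, and 33 had a negative one. Among the 22 tested members above 55% GC, 21 were negative. The highest r was that of ZNF121, 0.96, and the lowest that of ZNF575, -0.86. ZNF575 was named after its value was seen.

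The letters were tested within each setup with a DESeq2 likelihood-ratio test, arm and letter against arm alone, over the 6 libraries. At an adjusted p under 0.05, 115 of 183 tested members differed between letters in agoshRNA, which is 62.8%, against 62.7% of all genes. In gRNA 106 of 187 did, against 41.9% of all genes, in pre-gRNA 145 of 188, against 67.5%, and in syn-gRNA 8 of 188, against 9.86%. The share in agoshRNA was that of the background. The low-GC members were called about as often as other low-GC genes in gRNA and pre-gRNA and had the lower share in the other setups, a difference that was not tested: 70.7% against 78.6% in agoshRNA, 62.7% against 62.3% in gRNA, 77.2% against 77.5% in pre-gRNA and 4.72% against 11.8% in syn-gRNA. Among genes above 55% GC the members' shares were 71.4% against 63.4%, 72.7% against 40.4%, 90.9% against 69.3% and 4.55% against 8.72%, on 21 or 22 members. With offsets fitted to GC content in 40 bins, the counts of members called fell to 51, 22 and 75 in agoshRNA, gRNA and pre-gRNA and stood at 9 in syn-gRNA, while 8048 of 17485, 3087 of 18026, 8490 of 18349 and 1931 of 18151 of all genes were called. edgeR called 145, 140, 169 and 34 members, and 13955 of 17806, 9497 of 18371, 15054 of 18717 and 4621 of 18513 of all genes, which are also higher counts than those of DESeq2 over all genes.

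The direction of these differences was nearly uniform among the low-GC members called, and among the GC-rich ones in agoshRNA and gRNA. It was split among called members from 45% to 55% GC. In agoshRNA 6, 6 and 1 of these were highest in A, B and C. In the same order the counts were 5, 0 and 6 in gRNA and 12, 5 and 10 in pre-gRNA. In agoshRNA, 78 of the 87 low-GC members called were highest in letter B, while all 15 GC-rich members called were highest in letter A. In gRNA, 77 of 79 low-GC members were highest in C and all 16 GC-rich members in A. In pre-gRNA, 92 of 98 low-GC members were highest in C and 96 were lowest in B, while 18 of the 20 GC-rich members were lowest in C. The highest letter of these 20 was A for 6, B for 13 and C for 1. In syn-gRNA all 6 low-GC members called were highest in A and lowest in B. Other genes below 45% and above 55% GC had letter medians in the same order as the tested members in agoshRNA, gRNA and pre-gRNA. Below 45% GC, the median deviations in A, B and C of agoshRNA were -0.74, 0.70 and 0.07, against -0.67, 0.66 and 0.11 for members. They were -0.60, 0.01 and 0.61 against -0.61, -0.09 and 0.74 in gRNA. In pre-gRNA they were 0.18, -0.92 and 0.74 against 0.29, -1.14 and 0.86. The smallest p-values in agoshRNA were those of ZNF146 (DESeq2 adjusted p = 6.66e-33), ZNF507 (5.19e-21) and ZNF431 (1.59e-14). In gRNA they were those of ZNF260 (DESeq2 adjusted p = 1.14e-13), ZNF507 (1.28e-13) and ZNF146 (2.63e-13), and in pre-gRNA those of ZNF121 (2.48e-49), ZNF581 (3.23e-40) and ZNF146 (4.48e-36). In syn-gRNA they were those of ZNF8 (DESeq2 adjusted p = 4.26e-08), ZNF507 (1.38e-06) and ZNF121 (8.09e-06). ZNF8 had 22.5, 8.13 and 9.73 CPM in letters A, B and C of syn-gRNA KD and 24.96, 10.9 and 8.16 in NTC, and it overlaps 2 genes on its own strand with more counts than its own, so its level is uncertain. Whether the letters mark a culture, a day or a preparation is not stated, and the part of any of these was not tested.

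**Figure D4:**
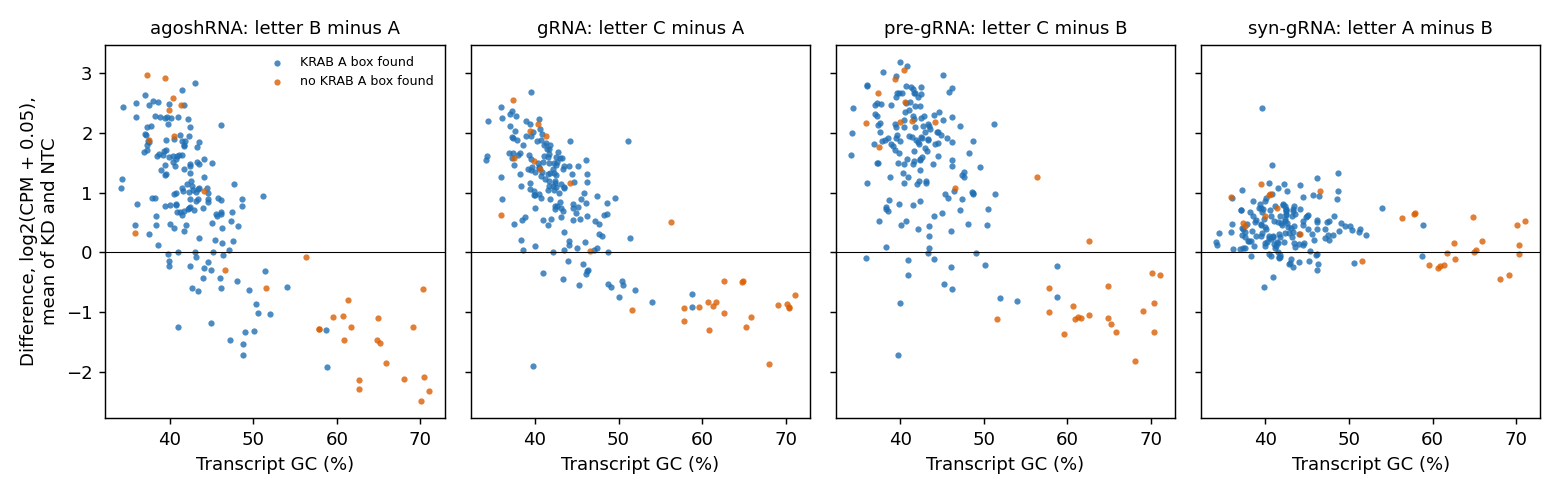
Difference between the 2 letters that stand furthest apart in each setup, as log2(CPM + 0.05) averaged over the KD and NTC libraries, against transcript GC content (%), 1 point per tested member and coloured by KRAB box. Points slope downward from low to high GC in agoshRNA (B minus A), gRNA (C minus A) and pre-gRNA (C minus B), and lie closer to 0 in syn-gRNA (A minus B), where 8 members were called.

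The comparison that the design turns on is KD against NTC in each setup, and in it no member was called. DESeq2 called 0 of 183 members in agoshRNA, 0 of 187 in gRNA, 0 of 188 in pre-gRNA and 0 of 188 in syn-gRNA at an adjusted p under 0.05, against a background of 0% of all genes in each setup. An unadjusted p under 0.05 was reached by 0, 1, 0 and 0 members in that order. Among all genes it was reached by 0 of 17802, 17 of 18371, 2 of 18717 and 55 of 18513. Few genes of any kind thus came near a call in this model, which has no term for the letter. edgeR also called 0 in each setup, with 0, 1, 1 and 0 members and 3, 34, 11 and 176 of all genes at an unadjusted p under 0.05. The authors' deposited table of DESeq2 results held 0, 3, 0 and 0 members with an unadjusted p under 0.05, the 3 being ZNF155, ZNF773 and ZNF329, and no adjusted p below 1 among members.

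The medians over the tested members of the log2 difference, KD minus NTC, were 0.09 in agoshRNA, -0.15 in gRNA, 0.13 in pre-gRNA and 0.04 in syn-gRNA, against 0.06, 0.02, 0.01 and 0.00 over all genes tested. Each median changed sign when a single library was left out. The range was -0.52 (without KD B) to 0.28 (without KD A) in agoshRNA and -0.53 (without KD C) to 0.13 (without NTC C) in gRNA. It was -0.16 (without KD C) to 0.47 (without NTC C) in pre-gRNA and -0.03 (without KD A) to 0.13 (without KD B) in syn-gRNA. The low-GC and GC-rich members had medians of 0.08 and 0.24 in agoshRNA, -0.15 and 0.30 in gRNA, 0.18 and -0.09 in pre-gRNA and 0.07 and -0.08 in syn-gRNA. The other genes below 45% and above 55% GC had medians of 0.01 and 0.17, -0.06 and 0.21, 0.15 and -0.14, and 0.05 and -0.06 in the same order of setups. With GC offsets the medians over all members were 0.06, -0.06, 0.02 and 0.01. None of these values rests on a called member.

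The member with the smallest p in gRNA was ZNF155, a KRAB gene at 44472014 to 44502477 of chromosome 19. It had 2.75, 2.84 and 3.25 CPM in KD A, B and C and 6.66, 5.37 and 4.28 CPM in NTC, so the groups did not overlap. The log2 difference was -0.78 (SE 0.39, unadjusted p = 0.0424 and adjusted p = 1.000 in DESeq2). ZNF329 had 1.41, 1.72 and 2.53 CPM in KD and 5.02, 2.42 and 2.88 in NTC, which overlap, with a difference of -0.76 (SE 0.47). ZNF773 had 2.83, 2.99 and 3.69 CPM in KD against 5.98, 4.46 and 4.87 in NTC, which do not overlap, with a difference of -0.59 (SE 0.37). Groups without overlap were found for 9 of 197 members in gRNA (4.57%, all lower in KD), against 2.62% of all genes. They were found for 2 members in agoshRNA (1.02% against 1.15%), 2 in pre-gRNA (1.02% against 1.44%) and 10 in syn-gRNA (5.08% against 5.19%).

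In the other setups the 3 members with the smallest p were ZNF223, ZNF442 and ZNF114 in agoshRNA (log2 differences -0.84, 0.85 and 0.62), ZNF682, ZNF233 and ZNF613 in pre-gRNA (0.86, 0.87 and 0.68), and ZNF440, ZNF260 and ZNF100 in syn-gRNA (0.51, 0.33 and 0.33). None had an unadjusted p under 0.05. ZNF682 had 1.51, 1.11 and 1.67 CPM in pre-gRNA KD and 0.862, 0.501 and 0.963 in NTC, which do not overlap. ZNF440 had 5.65, 2.92 and 4.46 CPM in syn-gRNA KD and 3.76, 2.40 and 2.96 in NTC, which overlap. Single-member values of KD minus NTC are plotted by setup.

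The precision of these differences varied between setups. The median SE of a member's log2 difference was 0.633 in agoshRNA, 0.512 in gRNA, 0.573 in pre-gRNA and 0.281 in syn-gRNA. The 95% interval lay inside a change of 1 on the log2 scale, in either direction, for 18, 25, 29 and 159 members. For ZNF146 the interval was -1.54 to 1.70 around 0.08 in agoshRNA, -1.17 to 1.11 around -0.03 in gRNA, -1.05 to 1.31 around 0.13 in pre-gRNA and -0.21 to 0.57 around 0.18 in syn-gRNA. For ZNF274 it was -0.94 to 0.38 around -0.28, -0.995 to 0.25 around -0.37, -0.87 to 0.78 around -0.05 and -0.27 to 0.46 around 0.09. In the first 3 setups the interval of most members in this model, which has no term for the letter, was thus wider than a change of 1. With the letter as a term the median SE was 0.357, 0.318, 0.267 and 0.283, and 117, 123, 158 and 151 members had such an interval, still with 0 members called.

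Setups were compared within the NTC arm and within the KD arm, in a DESeq2 model over all 24 libraries with 197 members tested. These comparisons share groups with each other and with the KD comparisons. In the NTC arm 1 member was called between agoshRNA and syn-gRNA, against 1.84% of all genes, and 1 between pre-gRNA and syn-gRNA, against 3.25%. The count was 0 between agoshRNA and gRNA (background 0.0496%), agoshRNA and pre-gRNA (0.0347%), gRNA and pre-gRNA (0%) and gRNA and syn-gRNA (1.32%), with 3, 5, 2 and 7 members at an unadjusted p under 0.05 in DESeq2. edgeR called 0 members in each of the 6 pairs, with 3, 4, 5, 2, 8 and 11 at an unadjusted p under 0.05 in the order agoshRNA with gRNA, pre-gRNA and syn-gRNA, gRNA with pre-gRNA and syn-gRNA, and pre-gRNA with syn-gRNA. In the KD arm 2 members were called between agoshRNA and syn-gRNA, against 3.14% of all genes. The count was 0 between agoshRNA and gRNA (0.0446%), agoshRNA and pre-gRNA (0.0446%), gRNA and pre-gRNA (0%), gRNA and syn-gRNA (1.58%) and pre-gRNA and syn-gRNA (2.52%), with 2, 8, 0, 9 and 14 members at an unadjusted p under 0.05 in DESeq2. edgeR called 0 in all 6, with 2, 8, 11, 0, 9 and 12. The shares of members called, at most 2 of 197, did not exceed these backgrounds in any of the comparisons with syn-gRNA.

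The 4 calls were all of members at a few CPM, and each was lost in edgeR. ZNF329, at 58637619 to 58666477, is a finger gene in which no KRAB box was found. It had 3.34, 2.63 and 4.14 CPM in agoshRNA NTC and 1.81, 0.899 and 0.855 in syn-gRNA NTC. The groups did not overlap, and the log2 difference was 1.49 (SE 0.43, DESeq2 adjusted p = 0.0329, edgeR 0.110). ZNF331, at 54024235 to 54083523, had 11, 2 and 14 counts (0.678, 0.125 and 0.899 CPM) in pre-gRNA NTC and 27, 22 and 32 counts (1.81, 1.65 and 2.10 CPM) in syn-gRNA NTC. It was lower in pre-gRNA by -1.79 (SE 0.52, DESeq2 adjusted p = 0.0253, edgeR 0.0892), without overlap. ZNF331 had 0.919, 0.588 and 0.964 CPM in pre-gRNA KD and 1.43, 1.66 and 2.18 in syn-gRNA KD, the same order in the other arm.

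The other pair came from the KD arm. ZNF790, a KRAB gene at 37308330 to 37341689, had 0.947, 1.01 and 0.171 CPM in agoshRNA KD and 2.11, 1.81 and 1.82 in syn-gRNA KD (log2 difference -1.40, SE 0.43, DESeq2 adjusted p = 0.0435, edgeR 0.0986). ZNF846, a KRAB gene at 9862669 to 9903856, had 1.02, 1.22 and 0.942 CPM in agoshRNA KD and 3.01, 1.81 and 3.18 in syn-gRNA KD (log2 difference -1.31, SE 0.38, DESeq2 adjusted p = 0.0279, edgeR 0.0600). Neither pair of groups overlapped. With GC offsets the adjusted p was 0.480 for ZNF790 and 0.0570 for ZNF846, and from the 6 libraries alone 0.378 and 0.264. Leaving out agoshRNA KD B raised the number of members called in this pair from 2 to 15. The count of all genes with that library left out is not given here.

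The median log2 differences between setups over the 197 members ranged from -0.27 (agoshRNA minus gRNA) to 0.17 (gRNA minus pre-gRNA) in the NTC arm. In the KD arm they ranged from -0.17 (agoshRNA minus syn-gRNA) to 0.06 (pre-gRNA minus syn-gRNA). In 11 of the 12 pairs the median changed sign when 1 library was left out, the exception being agoshRNA minus gRNA in the NTC arm, which lay between -0.45 and -0.02. With GC offsets the medians ran from -0.20 to 0.19 in the NTC arm and from -0.15 to 0.20 in the KD arm. The sign turned in NTC for gRNA minus pre-gRNA (-0.03) and pre-gRNA minus syn-gRNA (0.19), and in KD for agoshRNA minus syn-gRNA (0.01) and gRNA minus syn-gRNA (0.11). All 22 GC-rich members had a higher level in pre-gRNA than in syn-gRNA, in both arms, with medians of 0.58 in NTC and 0.55 in KD. Other genes above 55% GC went the same way, 4662 of 5879 higher in NTC (median 0.43) and 4513 in KD (median 0.34). None of the 22 members was called, and 3 in each arm had an unadjusted p under 0.05 in DESeq2.

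Whether the KD effect differed between setups was tested as the difference of 2 KD-minus-NTC effects in the same model. DESeq2 called 0 of 197 members in all 6 pairs of setups, against a background of 0% of all genes. The numbers of members with an unadjusted p under 0.05 were 2 for gRNA against pre-gRNA, 1 for gRNA against syn-gRNA and 0 for the other 4 pairs, and edgeR gave 0 calls and the same numbers. The medians were 0.15 for agoshRNA minus gRNA, -0.07 for agoshRNA minus pre-gRNA, 0.01 for agoshRNA minus syn-gRNA, -0.28 for gRNA minus pre-gRNA, -0.20 for gRNA minus syn-gRNA and 0.07 for pre-gRNA minus syn-gRNA. With GC offsets they were 0.11, 0.03, 0.02, -0.08, -0.09 and 0.01.

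The partners of the family were measured as a list of 24 genes of the KRAB pathway, all of which passed the filter. TRIM28, the corepressor that KRAB domains bind, had a mean of 471 CPM (lowest library 233, highest 775), and SETDB1 had 59.8 CPM (36.6 to 81.0). The log2 difference of KD against NTC was 0.21, 0.31, -0.18 and -0.08 for TRIM28 and -0.15, -0.12, -0.06 and -0.03 for SETDB1 in agoshRNA, gRNA, pre-gRNA and syn-gRNA. DESeq2 called 0 of the 24 in each KD comparison, with 0, 0, 0 and 1 at an unadjusted p under 0.05, and 0 in every comparison of setups. Of all genes 0% were called in each KD comparison and 0% to 3.25% in the comparisons of setups, so 0 of 24 is near the background. In the letter tests, where 62.7%, 41.9%, 67.5% and 9.86% of all genes were called, 24 of 24 differed between letters in agoshRNA, 17 in gRNA, 24 in pre-gRNA and 3 in syn-gRNA, the last being HDAC1, a histone deacetylase, ATF7IP, a partner of SETDB1, and CBX5, which encodes HP1 alpha. Like the zinc-finger genes and the tested genes as a whole, the corepressor genes were called between letters and in no comparison of KD with NTC.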

How the data were processed

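Gene counts came from deposited tables of 24 poly(A) libraries. Per the submitters' processing notes, reads were handled with Trim Galore, STAR 2.7.3a (hg19), featureCounts and DESeq2; the counts, gene lengths, log2 fold changes and p-values are the authors' deposited values, per the file headers. Totals ran from 10994974 to 16233777 counts per library. Here DESeq2 1.42.0 tested the raw counts of genes that reached 10 counts in 3 or more libraries, with Benjamini-Hochberg adjustment over all genes tested and a threshold of 0.05. KD was compared with NTC within the 6 libraries of a setup, setups in a model of all 24 libraries, and column letters by a likelihood-ratio test. edgeR 4.0.16 (quasi-likelihood, TMM; R 4.3.3), TMM factors in DESeq2, no filter, a mean of at least 50 counts, GC offsets in 40 bins, the letter as a term and each library left out were the alternatives. Scripts were tested on simulated data. GC content came from the longest GENCODE 29 (GRCh38) transcript of a gene. Translated GENCODE 29 coding sequences took the place of the RefSeq proteins first planned. A KRAB box was counted if found in any coding model of a gene that has its start, and fingers were counted in the longest such model. GRCh38 served for sequence only, and gene positions are those of the hg19 tables. CPM and RPKM were computed from the counts. The genes named were the 3 with the smallest p per KD comparison, called members per pair of setups (up to 3 in each direction), the 6 with the highest RPKM, the 4 with the largest and 4 with the smallest spread, 14 with a known role, the 3 with the smallest p per letter test, the 5 most alike genes, and TRIM28, SETDB1 and called genes of the KRAB pathway list. Members and lists were chosen with earlier results of these data known.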

Additional observations from a re-analysis of the deposited data

Results flagged for a closer look

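When libraries of the same column letter were compared, the members' median level was lower in KD in gRNA and higher in KD in pre-gRNA. A library's level here is the median over 197 members of the deviation from each gene's own mean (log2 CPM). Library medians were subtracted, which is not the median of the members' own differences. The KD median minus the NTC median was -0.756 in letter A, -0.0976 in B and -0.0443 in C of gRNA, so every letter was lower in KD. In pre-gRNA it was 0.239 in A, 0.11 in B and 0.179 in C, so every letter was higher. The signs were mixed in agoshRNA (-0.411, 0.332 and -0.231) and in syn-gRNA (0.0197, -0.0406 and 0.179). Members higher in KD numbered 46, 84 and 73 of 197 in gRNA and 136, 105 and 137 in pre-gRNA. The same differences over all genes were -0.29, -0.04 and 0.01 in gRNA and 0.04, 0.07 and 0.00 in pre-gRNA. Members above 55% GC had 0.24, -0.13 and 0.14 in gRNA and -0.20, 0.00 and -0.21 in pre-gRNA, mostly the other way. With GC offsets the median KD effect over all members was -0.06 in gRNA and 0.02 in pre-gRNA. The difference between these medians was not tested. For single members, the test of the difference in KD effect between gRNA and pre-gRNA called 0 of 197 in DESeq2 and in edgeR, with 2 at an unadjusted p under 0.05 in each.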

How the results depend on the processing

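No paired analysis was possible because the columns carry letters and not the replicate numbers of the labels, by which libraries would be paired. Libraries were matched by their letter instead, as a term in the model. It left 0 members called in every KD comparison, with 5, 19, 25 and 13 members at an unadjusted p under 0.05 in edgeR for agoshRNA, gRNA, pre-gRNA and syn-gRNA (an alternative chosen after seeing the data). All-gene counts at that threshold are not given here, so whether these member counts exceed the background cannot be read from them. Libraries with the same letter deviated together over members in agoshRNA (r 0.81, 0.82 and 0.43), gRNA (0.68, 0.44 and 0.83) and pre-gRNA (0.32, 0.82 and 0.87), and less in syn-gRNA (0.40, 0.12 and 0.18). Over 56 alternatives the KD comparisons gave 0 calls (0 to 25 members at an unadjusted p under 0.05), and over 180 the differences in KD effect gave 0 (0 to 17). In all, 580 of the recomputed counts stayed within 1.5 times and 60 did not. The 580 include the 56 and the 180 that were 0 throughout, so they say little about comparisons with calls. No single-gene value changed direction, 38 lost their call and 235 kept their side of the threshold.

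For the letters, GC offsets gave 51 (agoshRNA), 22 (gRNA) and 75 (pre-gRNA) members, and edgeR gave 34 in syn-gRNA. Leaving out 1 library gave 50 to 98 in agoshRNA (50 without KD A, 65 without KD B, 76 without NTC A), 24 to 90 in gRNA (24 without NTC C, 25 without KD C, 53 without KD A), 94 to 120 in pre-gRNA (94 without KD C) and 0 to 6 in syn-gRNA (0 without KD A or NTC A, 5 without KD B). The counts of all genes with 1 library left out are not given here, so these counts have no background beside them.

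Between setups, edgeR, no filter and a mean of at least 50 counts each gave 0 members in the 3 comparisons that had a call; the last removed the 4 called members, whose means are below 50 counts, before testing. GC offsets gave 6 (NTC, agoshRNA with syn-gRNA), 2 (NTC, gRNA with syn-gRNA), 9 (NTC, pre-gRNA with syn-gRNA), 4 (KD, agoshRNA with syn-gRNA) and 4 (KD, pre-gRNA with syn-gRNA), with 1430, 1163, 1711, 1648 and 1528 of 19725 genes called. The 6 libraries alone gave 4 (NTC, gRNA with syn-gRNA), 3 (NTC, pre-gRNA with syn-gRNA), 0 (KD, agoshRNA with syn-gRNA) and 1 (KD, pre-gRNA with syn-gRNA). Leaving out 1 library gave 0 to 2 in each of the 3 NTC comparisons with syn-gRNA, 0 to 15 in KD, agoshRNA with syn-gRNA (15 without agoshRNA KD B), and 0 to 1 in KD, gRNA or pre-gRNA with syn-gRNA. For the 6 libraries alone and with 1 library left out, the counts of all genes are not given here. Those member counts therefore have no background beside them. The cause of these shifts was not tested. CPM and size-factor scaling differed by -0.21 to 0.26 (log2) between libraries. At these depths members with few counts limit what could be detected.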
